A study of Rattus norvegicus with 125 samples.

Results

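The inner medulla of the rat kidney holds collecting ducts and the thin limbs of long loops side by side, and their RNA was compared in 19 hand-dissected libraries of the 125 samples of the series. The inner medullary collecting duct (IMCD) gave 8 libraries. The thin limbs gave 11, of which 4 were from the inner medullary descending limb of long loops (LDLIM) and 7 from the thin ascending limb (tAL). Membership follows the labelled segment, and all 17144 gene symbols of the deposited table were considered, of which 8932 passed the filter and were tested. The tubules came from the left kidneys of adult male Sprague-Dawley rats of 200 to 250 g on normal chow, with no treatment or genetic change named, and per the labels inner medullary tissue was digested in collagenase for 90 min, so zone, strain, sex and digestion time were the same in all 3 groups. Nothing in the labels tells whether libraries of a segment are from separate animals, so the spread that the p-values measure may be technical.

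The collecting duct makes the final adjustment of urine volume. Vasopressin binds the receptor AVPR2, cyclic AMP rises, and the water channel aquaporin-2 moves into the apical membrane while aquaporin-3 and aquaporin-4 let water leave through the basolateral membrane. Urea leaves the terminal duct through the urea transporter UT-A, the product of Slc14a2. The thin descending limb is permeable to water through aquaporin-1, whereas the thin ascending limb is watertight and permeable to chloride. Barttin (Bsnd) is a chloride channel subunit of the ascending limb. The collecting duct grows from the ureteric bud, whereas the loop of Henle grows from the nephron progenitors of the metanephric mesenchyme.

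The labels were first set against marker genes. Levels are in RPKM, which scales reads by transcript length and by the size of the library. The 9 principal cell markers, of which Aqp2 had the highest mean, summed to 6173 to 24451 RPKM in IMCD. The sums were 7.66 to 73.8 RPKM in LDLIM and 6.27 to 189 RPKM in tAL. A sum does not show each marker. Of the 9, 6 were called higher in IMCD, and Scnn1b, Scnn1g and Hsd11b2, given below, were not. Every LDLIM library was high in Aqp1, at 3524, 5284, 1735 and 3972 RPKM. LDLIM library 3 also held the ascending limb genes Bsnd and Cldn10, at 212 and 91.6 RPKM. Cldn10 was at 186 RPKM in IMCD library 7 and at most 24.6 RPKM in the other IMCD libraries. The tAL group was mixed. The ascending limb genes Bsnd and Cldn10 were at 1227, 332, 993 and 676 RPKM and at 696, 246, 511 and 165 RPKM in tAL libraries 3, 4, 5 and 6, but at 0.782, 1.65 and 0.482 RPKM and at 0.345, 0.826 and 0.843 RPKM in libraries 1, 2 and 7. Libraries 1 and 2 held endothelial genes instead: Plvap, of fenestrated endothelium, was at 5483 and 2054 RPKM, Emcn at 1971 and 2505 RPKM and the endothelial cadherin Cdh5 at 196 and 121 RPKM, while the epithelial adhesion gene Epcam was at 0.344 and 1.36 RPKM. Over all 12 endothelial markers the sum was 8463 and 5737 RPKM in these libraries, 159 to 694 RPKM in the other tAL libraries, 41.7 to 164 RPKM in LDLIM and 0.0112 to 72.1 RPKM in IMCD. Aqp1, the descending limb gene, was high in tAL libraries 4, 6 and 7 (493, 4296 and 5273 RPKM). So 2 of the 7 libraries labelled tAL carried endothelial and not epithelial markers, and 1 more (library 7) had Aqp1 without ascending limb genes. Values without these libraries are given for part of the results that they change, beside the result or where lost calls are listed. The part that other cells in a dissected piece play in a result was not tested beyond those values, and fewer cells of a type and less RNA per cell cannot be told apart in such libraries.

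**Figure D1:**
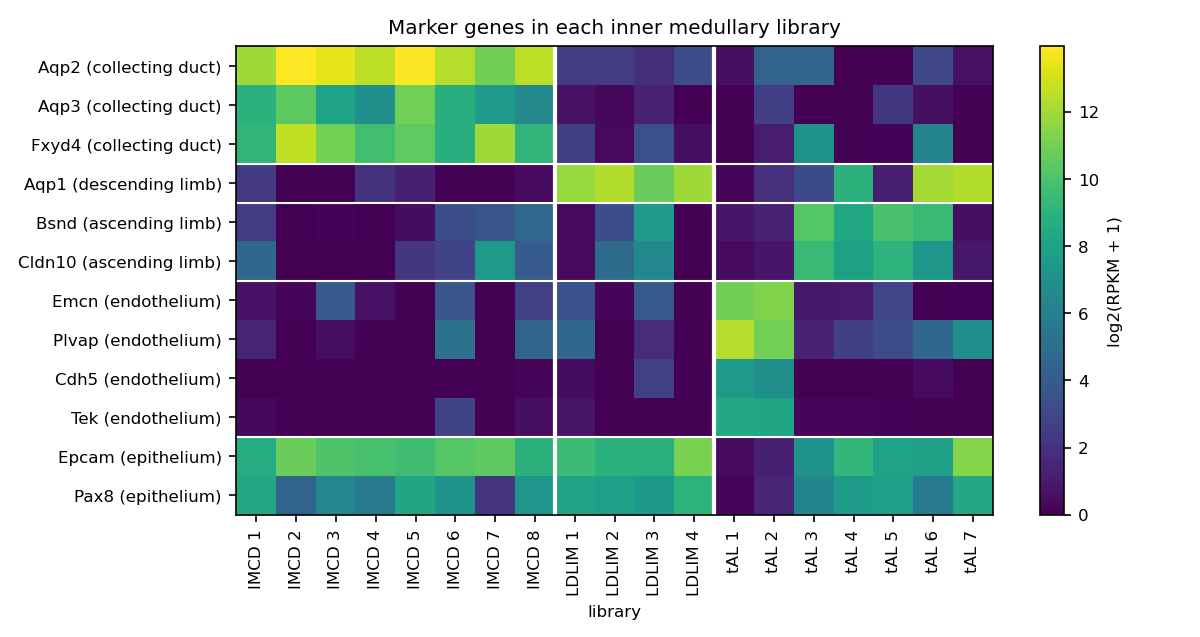
Marker genes in the 8 IMCD, 4 LDLIM and 7 tAL libraries; colour is log2(RPKM + 1), each column is 1 library and each row 1 gene with the structure it marks. Aqp2 is high in all 8 IMCD libraries, Aqp1 in all 4 LDLIM libraries and 3 tAL libraries, and the endothelial genes are high in tAL libraries 1 and 2, where Epcam and Pax8 are low.

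The 5 thin limb markers summed to 130 to 1006 RPKM in IMCD, but they include Slc14a2, which reached 1003 RPKM there. Markers of other cells summed to less than the principal cell markers in IMCD. Against the thin limbs they went in both directions, and the highest intercalated cell and erythrocyte sums were in IMCD. The 15 intercalated cell markers summed to 1.95 to 185 RPKM in IMCD, 0.105 to 24.4 RPKM in LDLIM and 0.0247 to 24.9 RPKM in tAL, the 10 thick ascending limb markers to 0.133 to 8.40 RPKM in IMCD, 0.776 to 40.3 RPKM in LDLIM and 0.929 to 338 RPKM in tAL, and the 12 proximal tubule markers to 0.219 to 25.3 RPKM in IMCD, 17.2 to 62.1 RPKM in LDLIM and 0.0344 to 63.7 RPKM in tAL. The 12 leukocyte markers summed to 0.0996 to 65.3 RPKM in IMCD, 2.04 to 206 RPKM in LDLIM and 0.732 to 762 RPKM in tAL, the highest in 1 tAL library, and the 12 interstitial cell markers to 0.0161 to 14.98 RPKM in IMCD, 0.0261 to 35.6 RPKM in LDLIM and 0.0844 to 33.3 RPKM in tAL. Erythrocyte markers reached at most 20.6 RPKM in IMCD, 5.69 RPKM in LDLIM and 5.15 RPKM in tAL. Papillary surface markers reached at most 0.0745 RPKM in IMCD, 2.80 RPKM in LDLIM and 1.39 RPKM in tAL. The number of genes at 1 RPKM or more was 3042 to 8434 in IMCD, 3316 to 7974 in LDLIM and 2142 to 7934 in tAL. The table holds no read counts, so no counting interval is given. Across the tested genes, which are not independent replicates, libraries of a segment correlated at r = 0.506 to 0.849 in IMCD, 0.455 to 0.740 in LDLIM and 0.277 to 0.688 in tAL, so no library repeats another.

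Genes higher in the collecting duct outnumbered those higher in the thin limbs. On the log2(RPKM + 1) scale, 176 of 8932 tested genes (1.97%) were higher in IMCD than in the mean of LDLIM and tAL and 61 (0.683%) were lower, at an adjusted p under 0.05 and a log2 change of at least 1. The 8 IMCD libraries lay above all 11 thin limb libraries in 41 genes (0.459% of those tested), of which 40 were called, and below all 11 in 2 genes (0.0224%), Clu and Esam. Leaving out tAL libraries raised these numbers, with fewer libraries to compare. They were 57 above (0.647%) and 14 below (0.159%) without 1 and 2, 46 (0.528%) and 8 (0.0918%) without 4, 6 and 7, and 60 (0.686%) and 19 (0.217%) without 1, 2 and 7. A stricter call, which asks that IMCD differ from LDLIM and from tAL each, left 38 genes higher (0.425%) and 7 lower (0.0784%), together 0.504% of the genes tested. The median log2 change over all tested genes was 0.22, and the genes called higher made up 74.3% of all calls; under quantile normalization the median was -0.03 and that share 58.0%, so the balance between the directions depends on the scaling. Without tAL libraries 1 and 2, 189 genes were higher and 90 lower, among them 162 of the 176 and 58 of the 61. Without tAL libraries 4, 6 and 7, the numbers were 128 and 53. Without libraries 1, 2 and 7, 277 genes were called, of which 172 (62.1%) were higher. The stricter count rests on few libraries: it was 23, 22 and 24 genes higher without LDLIM library 1, 2 or 4, and 4 lower without IMCD library 7, LDLIM library 1, 2 or 3, or tAL library 6 or 7, and 3 without tAL library 4.

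**Figure D2:**
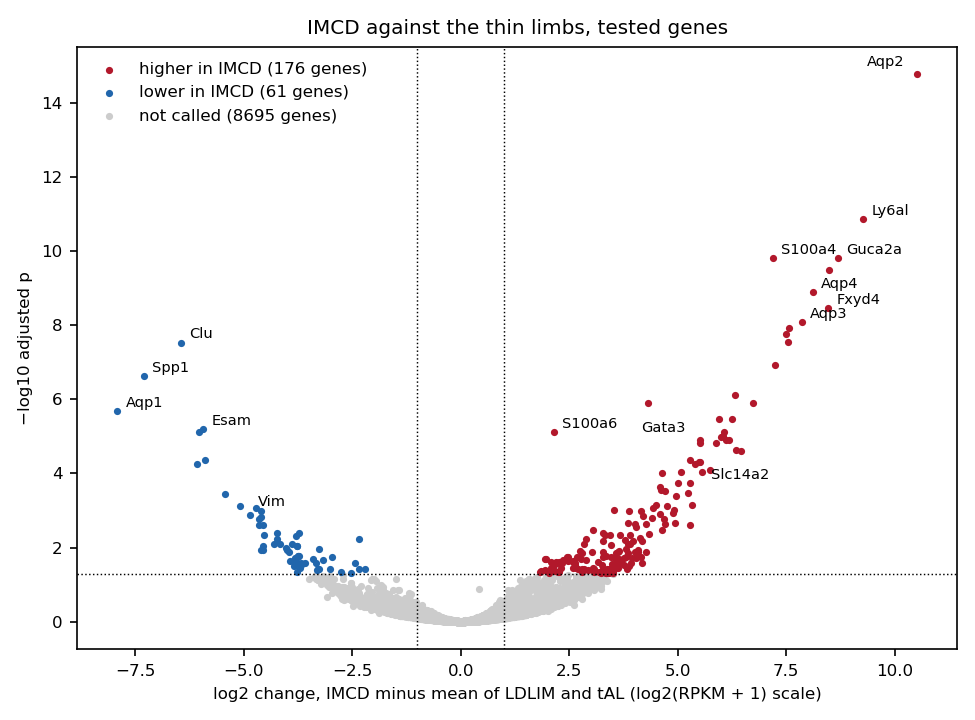
Log2 change of each tested gene, IMCD minus the mean of LDLIM and tAL on the log2(RPKM + 1) scale (x axis), against the −log10 adjusted p (y axis); dotted lines mark a log2 change of 1 in either direction and an adjusted p of 0.05. The 176 genes higher in IMCD reach a change of 10.51 (Aqp2), and the 61 lower ones a change of -7.92 (Aqp1).

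Aqp2 had the largest log2 change of all tested genes, and the basolateral water channels did not overlap between IMCD and the thin limbs either. Aqp2 had 1972 to 15830.4 RPKM (median 6087) in IMCD. It stood at 4.38, 4.46, 2.56 and 9.00 RPKM in LDLIM and at 0 to 23.2 RPKM (median 0.551) in tAL. The lowest IMCD library was thus above the highest thin limb library by a wide margin (log2 change 10.51 ± 0.81, adjusted p = 1.7e-15, where ± is the standard error). Aqp4, a basolateral water channel, had 66.8 to 697 RPKM (median 379) in IMCD. It stood at 0.0588, 0.151, 0.0627 and 0.0125 RPKM in LDLIM and at 0 to 0.462 RPKM (median 0) in tAL. No thin limb library exceeded 0.462 RPKM (log2 change 8.11 ± 0.91, adjusted p = 1.3e-09). Aqp3, the other basolateral channel, had 95.0 to 2030.2 RPKM (median 348) in IMCD. It stood at 0.553, 0.254, 1.43 and 0 RPKM in LDLIM and at 0 to 5.13 RPKM (median 0.0396) in tAL, again without overlap (log2 change 7.86 ± 0.94, adjusted p = 8.3e-09). Among the 3, the basolateral channels were lower than Aqp2 in each IMCD median on the per-length RPKM scale.

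Aqp1 ran the other way. Aqp1 had 0.0294 to 4.08 RPKM (median 0.188) in IMCD. It stood at 3524, 5284, 1735 and 3972 RPKM in LDLIM and at 0.163 to 5273 RPKM (median 7.87) in tAL. All 4 LDLIM libraries were far above all IMCD libraries, whereas tAL libraries 1, 2 and 5 (0.163, 2.75 and 1.25 RPKM) fell within the IMCD range. The log2 change against the thin limbs was -7.92 ± 1.16 (adjusted p = 2e-06); it was -10.93 against LDLIM and -4.90 against tAL, and the stricter call was missed (adjusted p = 0.053). Without tAL libraries 4, 6 and 7 the log2 change against the thin limbs was -5.88, and without 1 and 2 it was -8.84.

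The upstream sequence of these genes is given because the transcription factor genes Gata2 and Gata3, described further on, were also higher in IMCD. For each gene the 250 bases before the annotated start are printed 5′ to 3′ (RefSeq promoters, build GRCr8), and capitals mark each GATAA or its reverse complement TTATC, the core that GATA factors bind. Aqp2, Avpr2 and Guca2a, which were higher in IMCD, and Aqp1, which was lower, are examples and do not stand for their groups, whose shares follow the sequences.
Aqp2, chr7:132590036-132590285, plus strand: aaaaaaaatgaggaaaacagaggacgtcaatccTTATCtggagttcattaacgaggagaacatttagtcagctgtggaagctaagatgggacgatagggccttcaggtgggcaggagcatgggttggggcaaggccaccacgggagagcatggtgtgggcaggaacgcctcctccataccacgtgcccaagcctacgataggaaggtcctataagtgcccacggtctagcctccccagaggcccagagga
Avpr2, chrX:156784889-156785138, plus strand: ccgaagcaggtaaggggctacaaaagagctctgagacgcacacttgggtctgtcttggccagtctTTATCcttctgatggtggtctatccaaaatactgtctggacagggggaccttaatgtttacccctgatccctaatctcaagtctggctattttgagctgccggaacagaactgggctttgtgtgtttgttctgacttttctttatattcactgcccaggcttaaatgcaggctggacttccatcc
Guca2a, chr5:138522196-138522445, plus strand: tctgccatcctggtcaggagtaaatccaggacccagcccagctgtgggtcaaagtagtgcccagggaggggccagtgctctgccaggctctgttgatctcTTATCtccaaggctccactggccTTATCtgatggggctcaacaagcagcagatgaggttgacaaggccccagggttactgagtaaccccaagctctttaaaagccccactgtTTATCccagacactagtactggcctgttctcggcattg
Aqp1, chr4:85812534-85812783, plus strand: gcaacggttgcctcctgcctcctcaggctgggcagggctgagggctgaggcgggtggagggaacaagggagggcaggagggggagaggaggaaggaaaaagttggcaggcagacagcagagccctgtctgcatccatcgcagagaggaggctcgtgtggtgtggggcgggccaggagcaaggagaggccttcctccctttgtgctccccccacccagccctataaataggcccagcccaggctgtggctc
The word occurred 1 time before Aqp2, 1 time before Avpr2, 3 times before Guca2a and 0 times before Aqp1. Of the genes higher in IMCD that had a promoter in the table, 19 of 133 held it (14.3%), and 12 of 42 genes lower in IMCD (28.6%), against 939 of 6799 tested genes (13.8%) and 23.2% of all 27457 promoters. A match is a description of the letters in this window, not a binding site.

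The vasopressin receptor gene Avpr2 followed the water channels, whereas other hormone receptor and adenylyl cyclase genes went in both directions. Avpr2 had 180.4 to 688 RPKM (median 371) in IMCD. It stood at 0.394, 0.589, 50.4 and 0.0116 RPKM in LDLIM and at 0.121 to 102 RPKM (median 2.17) in tAL. The receptor did not overlap between IMCD and the thin limbs (log2 change 6.19 ± 0.99, adjusted p = 1.2e-05), although tAL libraries 4 and 5 reached 59.0 and 102 RPKM. Of 9 tested hormone receptor and adenylyl cyclase genes, 3 were called higher in IMCD (Avpr2, the cyclase Adcy3 and the calcium-calmodulin-dependent phosphodiesterase Pde1a) and 1 was lower (Akap12, a scaffold for protein kinase A), with a median log2 change of -0.24. The shares over all tested genes were 1.97% higher and 0.683% lower. Adcy3 had 0 to 66.1 RPKM (median 4.37) in IMCD. It stood at 0.0157, 0.0371, 0.0631 and 0.00191 RPKM in LDLIM and at 0 to 0.174 RPKM (median 0.0132) in tAL. Some IMCD libraries overlapped the thin limbs at 0, and the call (log2 change 2.59 ± 0.73, adjusted p = 0.035) was lost without any 1 of the 4 LDLIM libraries. Pde1a had 3.23 to 95.3 RPKM (median 13.6) in IMCD. It stood at 0.0129, 0.00906, 0.299 and 0 RPKM in LDLIM and at 0.0145 to 54.7 RPKM (median 0.0882) in tAL. The tAL values of Pde1a came from libraries 3, 4 and 5 (54.7, 12.8 and 3.75 RPKM). Its log2 change was 3.24, and 2.91 with the call lost when tAL libraries 1 and 2 were left out. Akap12 had 0 to 49.6 RPKM (median 6.16) in IMCD. It stood at 264, 259.8, 112 and 182 RPKM in LDLIM and at 0.229 to 211 RPKM (median 52.0) in tAL (log2 change -3.80 ± 1.00, adjusted p = 0.02).

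Of the 11 tested collecting duct transport genes, 6 were higher in IMCD and 0 lower, against 1.97% and 0.683% of all tested genes. Their median log2 change was 5.52 against 0.22 over all tested genes. The 6 were Aqp2, Aqp3, Aqp4, Avpr2, Fxyd4 and Slc14a2. Fxyd4 encodes CHIF, a regulator of the sodium pump, and had 453 to 6273 RPKM (median 1183) in IMCD. It stood at 5.27, 0.276, 9.65 and 0.448 RPKM in LDLIM and at 0.0270 to 139 RPKM (median 0.0805) in tAL. Its 2 highest thin limb values were in tAL libraries 3 and 6 (139 and 77.5 RPKM), still below the lowest IMCD library (log2 change 8.46 ± 0.98, adjusted p = 3.4e-09). Slc14a2 had 129.5 to 1003 RPKM (median 304) in IMCD. It stood at 52.1, 61.6, 21.6 and 0.117 RPKM in LDLIM and at 0.0858 to 24.6 RPKM (median 0.451) in tAL. The thin limb libraries stayed below the IMCD libraries (log2 change 5.52 ± 0.95, adjusted p = 5e-05), but 3 of the 4 LDLIM libraries held it at 21.6 RPKM or more, and the stricter call was missed (log2 change 4.23 against LDLIM and 6.81 against tAL, adjusted p = 0.13). Short products of Slc14a2 (UT-A2) belong to thin descending limbs and long ones (UT-A1) to the terminal duct, and the table has 1 level per transcript model, so the shares of the 2 products were not analysed here.

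The subunits of the epithelial sodium channel were low in IMCD. Scnn1a, the alpha subunit, had 0 to 2.83 RPKM (median 0.0272) in IMCD and Scnn1b 0 to 8.90 RPKM (median 0.0893) in IMCD; Scnn1g, the gamma subunit, had 0 to 4.72 RPKM (median 0.0367) in IMCD. In the thin limbs Scnn1a had 0.0197, 0.0517, 0.0791 and 5.49 RPKM in LDLIM and 0.00829 to 93.5 RPKM (median 0.0684) in tAL. Scnn1b had 0.0454, 0.0318, 0.152 and 0.0885 RPKM in LDLIM and 0 to 1.24 RPKM (median 0.0119) in tAL, and Scnn1g 0.00851, 0.0179, 1.73 and 0 RPKM in LDLIM and 0 to 0.239 RPKM (median 0) in tAL. Scnn1a reached 93.5 RPKM in tAL library 7. None of the 3 was called (log2 changes -0.41, 0.95 and 0.58; adjusted p = 0.86, 0.4 and 0.64). Hsd11b2, which inactivates glucocorticoids in aldosterone target cells, had 0.0702 to 69.2 RPKM (median 10.7) in IMCD, against 2.50, 1.79, 7.82 and 24.2 RPKM in LDLIM and 0.0842 to 14.9997 RPKM (median 5.41) in tAL, and its groups overlapped (adjusted p = 0.84). Sgk1, the aldosterone- and tonicity-responsive kinase, had 123 to 479 RPKM (median 325) in IMCD, against 70.5, 16.1, 99.0 and 9.68 RPKM in LDLIM and 0 to 933 RPKM (median 16.3) in tAL. The 2 highest tAL values were in libraries 1 and 2 (329 and 933 RPKM), which carried the endothelial markers. The log2 change of Sgk1 was 3.23 (adjusted p = 0.049) and 4.14 without these 2 libraries. Without tAL libraries 4, 6 and 7 it was 2.50 and the call was lost.

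**Figure D3:**
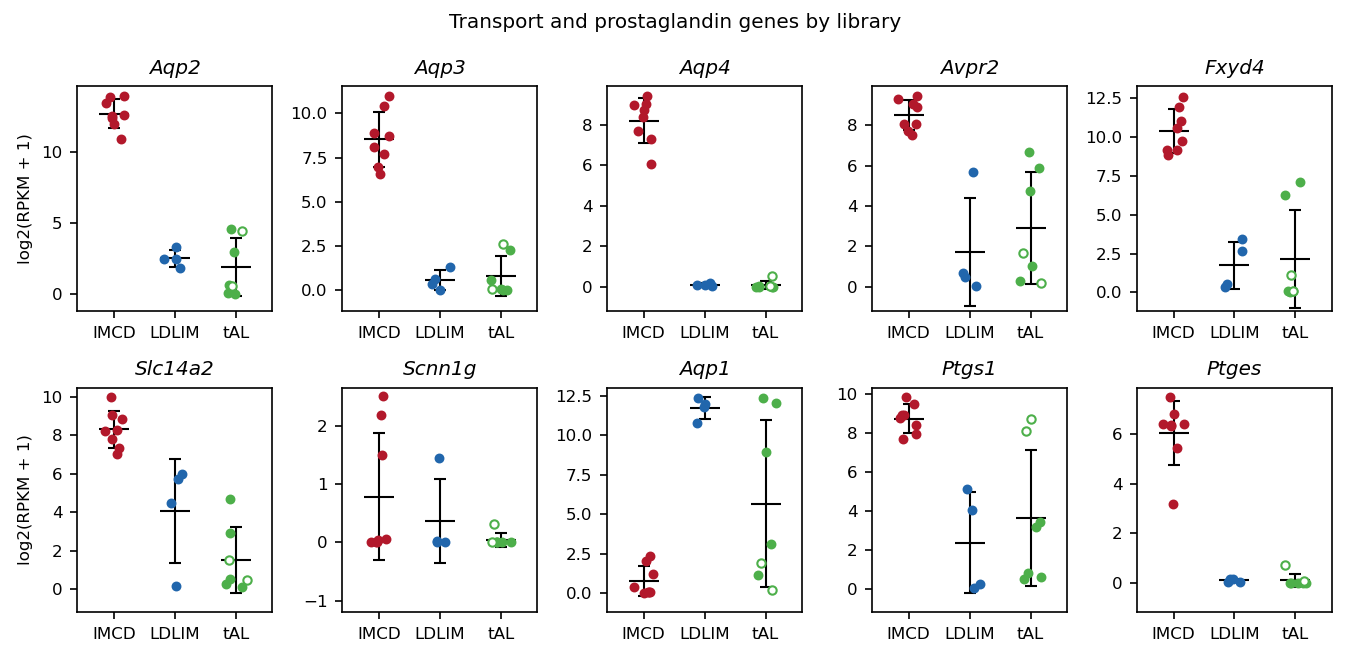
Log2(RPKM + 1) of 10 transport, receptor and prostaglandin genes in IMCD (n = 8), LDLIM (n = 4) and tAL (n = 7); each point is 1 library, open points are tAL libraries 1 and 2, and bars are the mean ± SD of all libraries. Aqp2, Aqp3, Aqp4, Avpr2, Fxyd4, Slc14a2 and Ptges do not overlap between IMCD and the thin limbs, and Aqp1 is high in LDLIM and in 3 tAL libraries.

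Among the 11 tested thin limb transport genes Aqp1 was called lower in IMCD and Slc14a2 higher, and the other 9 were not called (median log2 change -1.41). Bsnd had 0 to 26.5 RPKM (median 2.51) in IMCD. It stood at 0.352, 9.06, 212 and 0.00891 RPKM in LDLIM and at 0.482 to 1227 RPKM (median 332) in tAL (log2 change -2.50, adjusted p = 0.37). Bsnd was higher in tAL libraries 3, 4, 5 and 6 than in 1, 2 and 7, a spread within tAL that spans the IMCD levels. Without tAL libraries 1, 2 and 7 the log2 change of Bsnd was -4.33 and Bsnd was called lower in IMCD. The tight junction gene Cldn10 had 0 to 186 RPKM (median 4.86) in IMCD, against 0.284, 29.1, 91.6 and 0.00576 RPKM in LDLIM and 0.345 to 696 RPKM (median 165) in tAL, and was not called (adjusted p = 0.71). Leaving out tAL libraries 1, 2 and 7 gave a log2 change of -3.04 for Cldn10, also not called. Of 14 tested claudins, Cldn8, a collecting duct claudin, was called higher in IMCD and 0 lower. Over all tested genes 1.97% were higher and 0.683% lower. Cldn8 had 10.9 to 268 RPKM (median 89.8) in IMCD. It stood at 74.5, 88.4, 36.0 and 0.0125 RPKM in LDLIM and at 0.0100 to 10.5 RPKM (median 0.0874) in tAL. The difference lay between IMCD and tAL (5.71) more than between IMCD and LDLIM (1.91), where 3 of 4 LDLIM libraries fell within the IMCD range, and the call (log2 change 3.81 ± 0.99, adjusted p = 0.017) was lost without IMCD library 5 or LDLIM library 4. Cldn4, the claudin with the highest mean of the list, had 37.3 to 1039 RPKM (median 452) in IMCD, against 353, 969.6, 1024 and 57.9 RPKM in LDLIM and 1.20 to 3009 RPKM (median 222) in tAL, with a log2 change of 0.19 (adjusted p = 0.96). Its log2 change without tAL libraries 1, 2 and 7 was -1.24, also not called.

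Other transport lists held 1 or 2 calls each, where 1.97% of all tested genes were higher and 0.683% lower. Of 12 tested potassium and chloride channel genes, Kcnq1, a voltage-gated potassium channel, was called higher in IMCD (log2 change 2.57 ± 0.69, adjusted p = 0.023) at 0 to 109.7 RPKM (median 7.22) in IMCD and at most 0.174 RPKM in a thin limb library; the call was lost without LDLIM library 1 (log2 change 2.58). Of 14 tested acid-base genes, the sodium-proton exchanger Slc9a4 and the ammonia transporter Rhbg were higher in IMCD and 0 were lower. Slc9a4 had 0 to 51.0 RPKM (median 9.34) in IMCD and was listed at 0 in all LDLIM libraries and at 0 to 0.316 RPKM (median 0) in tAL (log2 change 2.80 ± 0.71, adjusted p = 0.014). Rhbg had 0.0244 to 88.8 RPKM (median 16.6) in IMCD. It stood at 0.0594, 0.0520, 0.269 and 0.0482 RPKM in LDLIM and at 0 to 24.5 RPKM (median 0) in tAL (log2 change 3.07 ± 0.88, adjusted p = 0.038). Rhbg was also the highest of the intercalated cell markers on average, and 1 of 7 tested members of that list, Rhbg itself, was called. Of 12 tested sodium pump genes, Fxyd4 and Sgk1 were higher; Fxyd2, the pump's gamma subunit and the highest of that list, had 295 to 4044 RPKM (median 1689.8) in IMCD, against 680.5, 812, 1723 and 771 RPKM in LDLIM and 249.9 to 2593 RPKM (median 1495) in tAL (adjusted p = 0.86).

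The prostaglandin pathway differed at 3 of its 10 tested genes, where 2.65% of all tested genes were called in either direction. Ptgs1, cyclooxygenase-1, had 201 to 903 RPKM (median 450.4) in IMCD, against 33.9, 0.178, 15.7 and 0.0539 RPKM in LDLIM and 0.418 to 410.0 RPKM (median 8.07) in tAL. Its 2 high thin limb values, 410.0 and 276 RPKM, were in tAL libraries 1 and 2 with the endothelial markers, and without them the log2 change was 6.69 in place of 5.73 (adjusted p with all 19 libraries = 8.1e-05). Ptges, the microsomal prostaglandin E synthase that uses the cyclooxygenase product, had 7.98 to 179.6 RPKM (median 82.4) in IMCD, against 0.115, 0.0302, 0.116 and 0.00700 RPKM in LDLIM and 0 to 0.627 RPKM (median 0) in tAL. The IMCD libraries did not overlap the thin limb libraries, and Ptges passed the stricter call (5.96 against LDLIM and 5.95 against tAL, adjusted p for both = 0.0014). Slco2a1, the prostaglandin uptake transporter, ran the other way. Slco2a1 had 0 to 0.181 RPKM (median 0.0252) in IMCD. It stood at 43.0, 7.91, 51.0 and 131 RPKM in LDLIM and at 0.0354 to 159 RPKM (median 0.283) in tAL. The thin limb values were high in LDLIM and in tAL libraries 4, 6 and 7 (72.8, 159 and 64.0 RPKM), the same libraries that held Aqp1 (log2 change -4.02 ± 0.99, adjusted p = 0.01; -2.66 without those 3).

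On the ureteric bud lineage list, 6 of 16 tested genes were higher in IMCD and 0 lower (median log2 change 1.49). Under quantile normalization 5 were higher. The shares over all tested genes were 1.97% higher and 0.683% lower. Of the 6, Wnt4 is not particular to that lineage. Gata3, a transcription factor of the ureteric bud, had 12.9 to 143 RPKM (median 58.4) in IMCD, against 0, 0.0868, 0.0484 and 0.0285 RPKM in LDLIM and 0 to 1.37 RPKM (median 0.0116) in tAL. Its groups did not overlap (log2 change 5.51 ± 0.88, adjusted p = 1.3e-05). Gata2 had 4.04 to 169 RPKM (median 58.0) in IMCD. It stood at 0.186, 0.1003, 0.826 and 0.0349 RPKM in LDLIM and at 0 to 66.7 RPKM (median 0.0258) in tAL. The thin limb libraries that held it were tAL 1 and 2 (66.7 and 18.3 RPKM), and without them the log2 change was 5.42 in place of 4.69. Elf5, an ETS-family factor, had 0 to 101 RPKM (median 23.2) in IMCD, at most 0.0186 RPKM in LDLIM and was listed at 0 in all 7 tAL libraries (log2 change 4.60 ± 0.86, adjusted p = 0.00023); IMCD library 7 was also at 0. Tfap2a had 0 to 33.7 RPKM (median 3.54) in IMCD and at most 0.0762 RPKM in a thin limb library (log2 change 2.08, 1.65 to 2.38 with single libraries left out, where LDLIM 1, 2 and 3 each ended the call).

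Wnt9b, the ureteric bud signal that starts nephron formation in the embryo, was among these 6. Wnt9b had 0.668 to 173 RPKM (median 53.3) in IMCD. It stood at 0, 0.0163, 0.0259 and 0.00126 RPKM in LDLIM and at 0 to 0.0964 RPKM (median 0) in tAL. All IMCD libraries were above all thin limb libraries, although IMCD library 7 stood at 0.668 RPKM (log2 change 5.28 ± 0.90, adjusted p = 4.3e-05). Wnt4 was lower in level, at 0 to 5.78 RPKM (median 4.56) in IMCD and at most 0.0100 RPKM in tAL and 0.0101 RPKM in LDLIM (log2 change 1.94 ± 0.51, adjusted p = 0.02); the call was lost without LDLIM library 1 (log2 change 1.94). The ETS factor Elf3, the highest of the list, was abundant in all 3 segments. It had 57.3 to 1199 RPKM (median 542) in IMCD, against 434, 429, 259 and 282 RPKM in LDLIM and 1.91 to 1286 RPKM (median 309) in tAL (adjusted p = 0.66). Of 9 tested Hox genes, 0 were called in either direction, against 2.65% of all tested genes, and their median log2 change was 1.17. Hoxb7, a ureteric bud gene and the highest of the 9, had 12.96 to 186 RPKM (median 27.3) in IMCD. It stood at 9.63, 4.91, 14.9 and 40.2 RPKM in LDLIM and at 0.0751 to 49.6 RPKM (median 17.8) in tAL.

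Nephron lineage genes moved in both directions, with 2 of 13 tested members lower in IMCD and 1 higher (median log2 change -1.47). Over all tested genes 0.683% were lower and 1.97% higher. Irx3, an Iroquois factor of the nephron, had 0 to 0.965 RPKM (median 0) in IMCD, against 13.5, 2.62, 11.2 and 27.1 RPKM in LDLIM and 0.0512 to 28.0 RPKM (median 11.51) in tAL. No IMCD library exceeded 0.965 RPKM, and it was at 2.602 RPKM or more in all thin limb libraries but tAL 3 (log2 change -3.17 ± 0.84, adjusted p = 0.022); without IMCD library 1, 5 or 8 the call was lost, with log2 changes of -3.45 to -2.95 over the single libraries left out. Foxc1 had 0 to 3.94 RPKM (median 0.0305) in IMCD. It stood at 16.8, 5.47, 72.2 and 279 RPKM in LDLIM and at 0 to 151 RPKM (median 0.170) in tAL (log2 change -3.29 ± 0.95, adjusted p = 0.038). It was high in LDLIM and in tAL libraries 4 and 5, and leaving out any 1 of 11 libraries ended its call. Mecom, a zinc finger factor, was the member that was higher in IMCD. Mecom had 1.65 to 94.5 RPKM (median 25.6) in IMCD. It stood at 0.00501, 0, 7.21 and 0.00183 RPKM in LDLIM and at 0.00422 to 25.7 RPKM (median 0.146) in tAL (log2 change 3.55 ± 0.93, adjusted p = 0.019; lost without LDLIM library 1 or 2). Pax8, the member with the highest mean, had 3.49 to 311 RPKM (median 113) in IMCD, against 283, 229.6, 169.6 and 524 RPKM in LDLIM and 0.133 to 338 RPKM (median 83.6) in tAL, and its groups overlapped (adjusted p = 0.89).

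Over 33 tested transcription factors of loop and duct, 6 were higher in IMCD (Gata3, Elf5, Tfap2a, Tbx3, Mecom and Foxq1) and 2 lower, among them Irx3. For all tested genes the shares were 1.97% and 0.683%. Tbx3, a T-box repressor, had 0 to 66.4 RPKM (median 31.5) in IMCD and at most 0.116 RPKM in tAL and 0.0204 RPKM in LDLIM (log2 change 3.86 ± 0.83, adjusted p = 0.0022). Foxq1, a forkhead factor, had 0 to 29.9 RPKM (median 13.7) in IMCD and was at 18.3 RPKM in tAL library 1, the library with the highest Plvap, and at most 0.0412 RPKM in the other thin limb libraries (log2 change 2.79; 3.09 without tAL libraries 1 and 2).

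**Figure D4:**
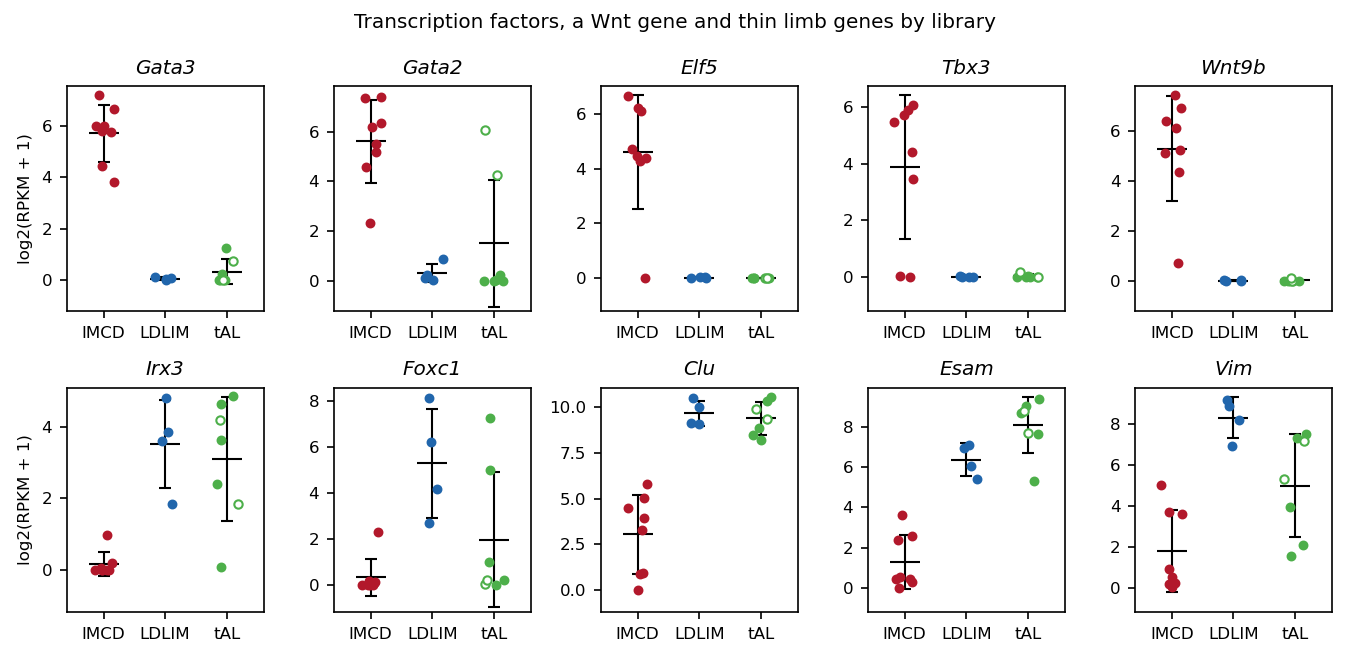
Log2(RPKM + 1) of 6 transcription factors, Wnt9b and 3 genes lower in IMCD, in IMCD (n = 8), LDLIM (n = 4) and tAL (n = 7); each point is 1 library, open points are tAL libraries 1 and 2, and bars are the mean ± SD of all libraries. Gata3 and Wnt9b separate IMCD from the thin limbs, Gata2 is also present in tAL libraries 1 and 2, and Clu and Esam are lower in every IMCD library.

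The genes with the largest increases without overlap included several outside the transport lists. Ly6al, a Ly6-family surface protein gene, had 369.8 to 1494 RPKM (median 675) in IMCD, against 0.0548, 0.321, 0.573 and 0.0278 RPKM in LDLIM and 0 to 0.644 RPKM (median 0.00740) in tAL. No thin limb library exceeded 0.644 RPKM (log2 change 9.27 ± 0.90, adjusted p = 1.4e-11). Guca2a, which encodes guanylin, the peptide ligand of guanylate cyclase C, had 117 to 1018 RPKM (median 619) in IMCD. It stood at 0.158, 0.303, 0.0659 and 0.0224 RPKM in LDLIM and at 0 to 0.577 RPKM (median 0) in tAL (log2 change 8.69 ± 0.91, adjusted p = 1.5e-10). Muc20, a membrane mucin, had 219 to 1139 RPKM (median 511) in IMCD, against 0.0584, 0.245, 9.14 and 0.00568 RPKM in LDLIM and 0 to 0.558 RPKM (median 0) in tAL (log2 change 8.48 ± 0.91, adjusted p = 3.3e-10). Gpha2, a glycoprotein hormone subunit, had 180.4 to 892 RPKM (median 575) in IMCD, against 62.3, 1.76, 60.7 and 0.00575 RPKM in LDLIM and 0 to 28.3 RPKM (median 0.0796) in tAL (log2 change 6.73 ± 0.97, adjusted p = 1.2e-06). Its change was 5.50 against LDLIM, where libraries 1 and 3 held 62.3 and 60.7 RPKM, and 7.95 against tAL.

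Also among these genes were Tspan1, a tetraspanin, at 86.6 to 459 RPKM (median 285) in IMCD and at most 4.37 RPKM in a thin limb library (log2 change 7.56 ± 0.92, adjusted p = 1.2e-08), and Tmem45b, a transmembrane protein gene, at 18.5 to 197 RPKM (median 87.6) in IMCD and at most 0.244 RPKM (log2 change 6.32 ± 0.89, adjusted p = 7.6e-07). Lgals3, which encodes the sugar-binding protein galectin-3, had 616 to 2839 RPKM (median 881) in IMCD, against 0.858, 43.4, 32.5 and 0.0697 RPKM in LDLIM and 0.0600 to 45.9 RPKM (median 3.75) in tAL. Degs2, a sphingolipid hydroxylase, had 61.9 to 1392 RPKM (median 525) in IMCD, against 0.351, 0.398, 0.607 and 1.06 RPKM in LDLIM and 0 to 4.72 RPKM (median 0.352) in tAL. Akr7a3, an aldo-keto reductase, had 179.8 to 858 RPKM (median 373) in IMCD, against 0.158, 0.287, 32.8 and 0.0210 RPKM in LDLIM and 0 to 17.0 RPKM (median 0.523) in tAL. The log2 changes of Lgals3, Degs2 and Akr7a3 were 7.50, 7.53 and 7.24, and in each the lowest IMCD library was above the highest thin limb library.

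Calcium-binding S100 and annexin genes were higher in IMCD at 5 of 18 tested members and lower at 0 (median log2 change 1.12). For all tested genes the shares were 1.97% higher and 0.683% lower. S100a4 had 1795 to 14531 RPKM (median 5485) in IMCD. It stood at 17.8, 81.7, 383 and 8.21 RPKM in LDLIM and at 0 to 146 RPKM (median 50.0) in tAL. The lowest IMCD library stood above the highest thin limb library, LDLIM 3 (log2 change 7.18 ± 0.75, adjusted p = 1.5e-10). S100a6 was abundant everywhere, with 3157 to 16557 RPKM (median 13954) in IMCD, against 2969, 4746, 5349 and 951 RPKM in LDLIM and 906 to 2793 RPKM (median 1581) in tAL; LDLIM libraries 2 and 3 reached into the IMCD range (log2 change 2.15 ± 0.33, adjusted p = 7.6e-06). S100a5 had 0 to 220.2 RPKM (median 34.3) in IMCD and at most 0.368 RPKM in a thin limb library (log2 change 4.04 ± 0.89, adjusted p = 0.0028). Anxa8 had 0.0244 to 289.7 RPKM (median 81.6) in IMCD, against 0.0594, 0.166, 0.00994 and 0.00482 RPKM in LDLIM and 0 to 50.6 RPKM (median 0.0411) in tAL, where the high tAL value was in library 4 (log2 change 4.64 ± 1.03, adjusted p = 0.0034). Anxa1 had 0.272 to 881 RPKM (median 208) in IMCD. It stood at 0.516, 0.0886, 18.0 and 0.0103 RPKM in LDLIM and at 0.0166 to 670.0 RPKM (median 30.8) in tAL. Its high tAL values, 289.5 and 670.0 RPKM, were in libraries 1 and 2; the log2 change was 3.84, and 4.66 without them. Without tAL libraries 4, 6 and 7 it was 3.04 and the call was lost, as it was with the replicate block and with detected genes as a covariate. Of 18 tested adhesion and keratin genes, 1 was called higher in IMCD, Krt19, and 1 lower, Vim, given further on (median log2 change 0.39). Krt19, a keratin of simple ductal epithelia, had 0.725 to 204 RPKM (median 118) in IMCD, against 12.4, 0.193, 6.85 and 0 RPKM in LDLIM and 0.0221 to 197 RPKM (median 1.95) in tAL (log2 change 4.04 ± 1.06, adjusted p = 0.019). Its call was lost without IMCD library 1 or LDLIM library 2. Epcam, the highest of that list, had 392 to 1738 RPKM (median 1035) in IMCD, against 759.8, 483, 468 and 2295 RPKM in LDLIM and 0.344 to 2733 RPKM (median 255) in tAL (log2 change 1.78, adjusted p = 0.33). Without tAL libraries 4, 6 and 7 Epcam was called higher in IMCD (log2 change 2.92), and without 1 and 2 its log2 change was 0.64.

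Among the genes lower in IMCD, Clu and Esam were those without overlap. Clu, which encodes the secreted chaperone clusterin, had 0 to 54.6 RPKM (median 11.7) in IMCD, against 1004, 1404, 557 and 527 RPKM in LDLIM and 295 to 1466 RPKM (median 638) in tAL. Every thin limb library was above every IMCD library (log2 change -6.45 ± 0.81, adjusted p = 2.9e-08), and the value without tAL libraries 1 and 2 was -6.41. Esam, an adhesion molecule of tight junctions that is best known from endothelium, had 0 to 11.2 RPKM (median 0.417) in IMCD, against 123, 41.1, 136 and 65.0 RPKM in LDLIM and 38.7 to 668 RPKM (median 412) in tAL. Esam was on the endothelial marker list, and whether endothelial RNA adds to its thin limb values was not tested. Its tAL values were 206 and 443 RPKM in libraries 1 and 2, and 522, 199, 412, 668 and 38.7 RPKM in libraries 3 to 7. The log2 change of Esam was -5.93 ± 0.91 (adjusted p = 6.3e-06) and -5.90 without tAL libraries 1 and 2. Of the other 4 tested endothelial markers, 0 were called, against 2.65% of all tested genes.

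Spp1, which encodes osteopontin, was the most abundant of these genes. Spp1 had 0.0195 to 148 RPKM (median 32.7) in IMCD. It stood at 23112, 13357, 10284 and 82909 RPKM in LDLIM and at 19.8 to 26933 RPKM (median 75.7) in tAL. LDLIM and tAL libraries 4, 6 and 7 (16956, 16439 and 26933 RPKM), the tAL libraries with Aqp1, were far above IMCD, whereas the other tAL libraries fell within the IMCD range (log2 change -7.31 ± 0.99, adjusted p = 2.4e-07; -5.43 without tAL libraries 4, 6 and 7). Vim, the intermediate filament vimentin, had 0.0108 to 31.8 RPKM (median 0.660) in IMCD, against 466, 294, 120.0 and 577 RPKM in LDLIM and 1.98 to 178 RPKM (median 38.3) in tAL (log2 change -4.87 ± 1.01, adjusted p = 0.0013). Extracellular matrix and growth factor genes were lower in IMCD at 5 of 21 tested members and higher at 1 (median log2 change -0.86). Over all tested genes 0.683% were lower and 1.97% higher. Under quantile normalization 7 members were lower and 2 higher. Besides Spp1 the lower ones were the basement membrane collagen Col4a1 (log2 change -4.23 ± 0.95, adjusted p = 0.004), the activin inhibitor Fst (log2 change -4.57 ± 1.13, adjusted p = 0.011), the growth factor gene Pdgfa (log2 change -3.84 ± 1.07, adjusted p = 0.031) and the matricellular gene Ctgf (log2 change -3.73 ± 0.96, adjusted p = 0.016). Col4a1 had 0 to 6.30 RPKM (median 0.0857) in IMCD. It stood at 43.0, 35.9, 28.4 and 109 RPKM in LDLIM and at 0.269 to 83.8 RPKM (median 22.6) in tAL. Fst had 0 to 1.09 RPKM (median 0.128) in IMCD. It stood at 60.9, 3.88, 50.7 and 1210.5 RPKM in LDLIM and at 0.0138 to 738 RPKM (median 0.510) in tAL. Ctgf had 0 to 0.247 RPKM (median 0.0398) in IMCD. It stood at 8.68, 0, 37.2 and 41.2 RPKM in LDLIM and at 0.237 to 80.1 RPKM (median 55.2) in tAL. In each of these 3 the IMCD maximum lay within the thin limb range but below most thin limb libraries.

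Outside these lists, and chosen after their values were seen, 4 more genes passed the stricter call as lower in IMCD. They were Tspan8, a tetraspanin, Fstl1, a secreted follistatin-like protein gene, Fhl2, a LIM-domain cofactor gene, and Asrgl1, an asparaginase gene. Fstl1 had 0 to 4.82 RPKM (median 0.389) in IMCD. It stood at 169.7, 126, 167 and 208 RPKM in LDLIM and at 3.33 to 327 RPKM (median 86.8) in tAL (log2 change -6.03; -6.64 against LDLIM and -5.42 against tAL, adjusted p for both = 0.0011). Fhl2 had 0 to 9.45 RPKM (median 0.315) in IMCD. It stood at 300.4, 247, 323 and 227 RPKM in LDLIM and at 0.601 to 328 RPKM (median 76.1) in tAL (log2 change -5.89). Tspan8 had 0 to 7.78 RPKM (median 0.103) in IMCD. It stood at 213, 411, 239.8 and 427 RPKM in LDLIM and at 0.513 to 545 RPKM (median 152) in tAL (log2 change -6.09). Asrgl1 had 0 to 5.98 RPKM (median 0.311) in IMCD. It stood at 130.1, 15.4, 33.2 and 188 RPKM in LDLIM and at 0.719 to 121 RPKM (median 74.8) in tAL (log2 change -4.66). In all 4 every LDLIM library was above every IMCD library, and at least 1 tAL library fell within the IMCD range.

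Osmolyte genes protect inner medullary cells against hypertonicity. Among them Akr1b1, Slc5a3 and Slc6a12 were not called. Akr1b1, the sorbitol-making aldose reductase, had 469 to 15727 RPKM (median 9428) in IMCD, against 4152, 7369, 7507 and 60.8 RPKM in LDLIM and 4.67 to 15614 RPKM (median 7905) in tAL (log2 change 1.35, adjusted p = 0.5). Cryab, a small heat shock protein of hypertonic cells, had 1637 to 9729 RPKM (median 2870.1) in IMCD, against 4089, 6358, 10249.9 and 1118 RPKM in LDLIM and 493 to 18931 RPKM (median 6026) in tAL (log2 change -0.51, adjusted p = 0.68). Cryab was called lower in IMCD without tAL libraries 1, 2 and 7 (log2 change -1.03) and with array quality weights (log2 change -1.05). The inositol transporter Slc5a3 had 0.176 to 237 RPKM (median 54.0) in IMCD, against 17.1, 59.9, 3.86 and 0 RPKM in LDLIM and 0 to 536 RPKM (median 3.78) in tAL. The betaine transporter Slc6a12 had 0 to 102 RPKM (median 30.6) in IMCD, against 37.6, 18.9, 59.1 and 59.8 RPKM in LDLIM and 0.262 to 435 RPKM (median 58.8) in tAL. Neither was called (log2 changes 2.07 and -0.80, adjusted p = 0.44 and 0.83). Nfat5, the transcription factor that drives these genes under hypertonicity, had 0.00499 to 19.8 RPKM (median 6.43) in IMCD, against 83.2, 83.3, 77.9 and 45.1 RPKM in LDLIM and 0.0697 to 103 RPKM (median 61.5) in tAL. It was above every IMCD library in all thin limb libraries but tAL 6, which stood at 0.0697 RPKM. Nfat5 missed the threshold (log2 change -2.88 ± 0.97, adjusted p = 0.11) and passed it without tAL library 6 (log2 change -3.29). Of the 12 tested osmotic response genes, Sgk1 was called higher and 0 were lower (median log2 change -0.38). For all tested genes the shares were 1.97% higher and 0.683% lower. Under quantile normalization Sgk1 was lost and Nfat5 was called lower.

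Of 18 tested glycolysis genes, the lactate dehydrogenase gene Ldha was higher in IMCD and 0 were lower (median log2 change 0.89). Ldha had 288 to 1535 RPKM (median 949) in IMCD. It stood at 129.7, 289, 211 and 36.0 RPKM in LDLIM and at 0.157 to 234 RPKM (median 66.2) in tAL (log2 change 3.31 ± 0.75, adjusted p = 0.0044). The lowest IMCD library was just below LDLIM library 2, and every tAL library was below the IMCD range. The share of all tested genes called in either direction was 2.65%. Of 26 tested oxidative phosphorylation genes and 15 tested fatty acid oxidation genes, 0 were called by limma (medians 0.58 and 0.46), and likewise 0 of 14 hypoxia response, 9 Notch pathway, 12 cell cycle and 7 endothelin, nitric oxide and purinergic genes; by limma 1132 of all tested genes had an unadjusted p under 0.05. Ednrb, the endothelin B receptor and the highest of the last list, had 1.51 to 238 RPKM (median 13.5) in IMCD, against 1.72, 0, 0.00866 and 0 RPKM in LDLIM and 0 to 197 RPKM (median 0.0629) in tAL. Its high tAL values were in libraries 1 and 2 (197 and 34.7 RPKM); the log2 change was 2.69 (adjusted p = 0.2), and without these libraries it was 3.57 and Ednrb was called higher in IMCD.

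Stress and chemokine genes varied widely between libraries of each segment. Of 24 tested immediate early and heat shock genes, Atf3, a stress-induced transcription factor, was lower in IMCD and 0 were higher. Over all tested genes 0.683% were lower and 1.97% higher. Atf3 had 0.0231 to 1144 RPKM (median 254) in IMCD. It stood at 3618, 2795, 1705 and 43.9 RPKM in LDLIM and at 54.8 to 5568 RPKM (median 557) in tAL (log2 change -3.01 ± 0.87, adjusted p = 0.039). The groups overlapped, and leaving out any 1 of 9 libraries ended the call. Fos, the highest of the list, had 324 to 3866 RPKM (median 1319.9) in IMCD, against 1264, 1173, 2948 and 336 RPKM in LDLIM and 2.08 to 2664 RPKM (median 626) in tAL (adjusted p = 0.61). Of 16 tested chemokine and cytokine response genes, Ccl2 and Ccl7, ligands that attract monocytes, were higher in IMCD and 0 were lower. Ccl2 had 0.343 to 2468 RPKM (median 361) in IMCD. It stood at 19.6, 0.0488, 55.8 and 0 RPKM in LDLIM and at 0 to 221 RPKM (median 0.137) in tAL (log2 change 5.28 ± 1.15, adjusted p = 0.0025). Ccl7 had 0.110 to 319 RPKM (median 102) in IMCD, was at 18.2 RPKM in LDLIM library 3 and was listed at 0 in the other 10 thin limb libraries (log2 change 5.56 ± 0.99, adjusted p = 9e-05). Both were near 0 in IMCD library 2 (0.343 RPKM for Ccl2 and 0.110 RPKM for Ccl7). The leukocyte markers summed to 0.0996 to 65.3 RPKM in IMCD, 2.04 to 206 RPKM in LDLIM and 0.732 to 762 RPKM in tAL, ranges that overlap. The part of leukocyte RNA in Ccl2 and Ccl7 was not tested.

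**Figure D5:**
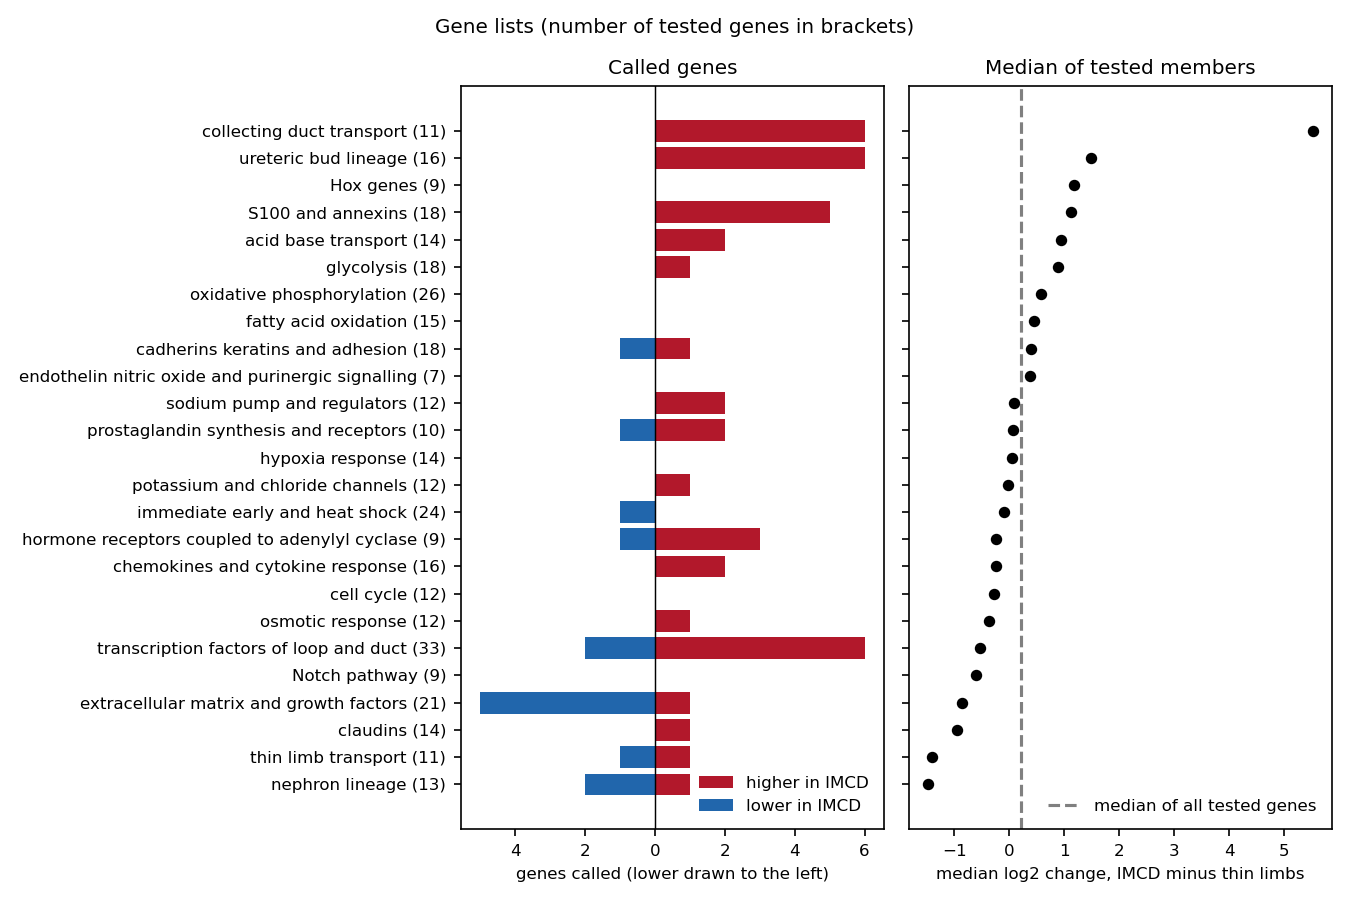
For 25 gene lists (rows, with the number of tested members), the left panel gives the number of members called higher (right of 0) and lower (left of 0) in IMCD, and the right panel the median log2 change of all tested members, with the dashed line at the median of all tested genes (0.22). Collecting duct transport and ureteric bud lineage have 6 genes higher each and 0 lower, and the extracellular matrix list has 5 lower.

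A number of the calls named above rested on few libraries. With each of the 19 libraries left out in turn, the call was lost without any 1 of 15 libraries for Sgk1 (log2 changes 2.85 to 3.67), 14 for Pde1a (2.90 to 3.58), 14 for Foxq1 (2.53 to 3.23), 13 for Rhbg (2.65 to 3.57), 12 for Anxa1 (3.41 to 4.75), 11 for Foxc1 (-3.73 to -2.82), 10 for Pdgfa (-4.18 to -3.35) and 9 for Atf3 (-3.74 to -2.07). Their direction held in each case. Alternatives were followed for 69 calls, which are those named in the text and that of Bst1, not described here. Without tAL libraries 4, 6 and 7, the tAL libraries with Aqp1, 13 of the 69 calls were lost: Sgk1, Wnt4, Tfap2a, Mecom, Foxc1, Foxq1, Adcy3, Pde1a, Akap12, Kcnq1, Anxa1, Atf3 and Fst. Without libraries 1, 2 and 7, 4 calls were lost, those of Mecom, Adcy3, Pde1a and Rhbg, and without libraries 1 and 2 that of Pde1a.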

How the data were processed

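Expression values were used as the authors deposited them, in RPKM per RefSeq transcript, in a table made with polyadenylation-site data; a second deposited RPKM table made without those data was an alternative. The genome build rn5 and the tools HOMER, SAMtools, STAR and Trimmomatic are named in the submitters' processing notes, without their order, settings or the scaling of RPKM. Per the labels' protocols, dissected tubules were lysed, amplified with a single-cell RNA-seq method and sequenced from both ends. Such amplification can lose low transcripts from small samples, and the table lists many genes at 0 in single libraries. Strand is not stated, so overlapping and antisense genes cannot be told apart, and members of multigene families share reads to an unknown extent.

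The 17974 transcript entries gave 17144 symbols; where a symbol had more than 1 transcript (503 symbols), the one with the highest mean over the 19 libraries was kept. Tested genes reached 1 RPKM in 4 or more of the 19 libraries. Genes under 1 RPKM in every thin limb library, such as Adcy3, Wnt4 and Tfap2a, passed this filter through IMCD libraries alone. The scale was log2(RPKM + 1), which understates changes of low genes, and limma 3.58.1 (R 4.3.3) gave two-sided trended moderated tests from 1 mean per segment. The contrast was IMCD minus the mean of LDLIM and tAL with equal weight. The stricter call took the larger p of IMCD minus LDLIM and IMCD minus tAL. Each p was adjusted by Benjamini-Hochberg over all tested genes, and calls needed an adjusted p under 0.05 and a log2 change of at least 1. The script was tested on simulated data. Tables and plots were made with Python 3.11.15, pandas 2.3.3, numpy 2.4.6 and matplotlib 3.10.9.

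The members, the 25 pathway and 10 marker lists and the rules were chosen with earlier results of these data known. Genes were named by rule: in each direction the 15 called genes that changed most and whose libraries do not overlap (of the lower ones 2 exist), called list members (at most 8 per list), and uncalled members of the transport, osmotic and marker lists or with the highest mean of their list. Some genes that the rule names are not reported here. Promoters were matched by symbol to a RefSeq table of build GRCr8, in which 6799 tested genes had an entry. Alternatives were the second table, quantile normalization, no filter, a pseudocount of 0.1, array quality weights, the number of detected genes as a covariate, a block for the replicate number, 1 mean for the thin limbs, all tubule libraries of the series in the fit, no libraries under 2500 genes, and leaving out single libraries. Leaving out tAL libraries 1 and 2, 4, 6 and 7, or 1, 2 and 7 was chosen after seeing the data. Libraries of other segments entered only that wider fit, and the glomerulus, whole-kidney and water-load samples were not used here.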

Additional observations from a re-analysis of the deposited data

Results flagged for a closer look

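A library that stood far from the other libraries of its group, by the gap to its nearest neighbour over the range of log2(RPKM + 1), was looked for in 234 groups of values of the genes named, leaving out groups that never reached 1 RPKM. It was found in 40. A chance rate of about 5 flags in 100 groups holds only for normally distributed values. Many genes here lay at the bottom of the scale in single libraries, and many were named for their group differences. The 40 flags therefore cannot be set against that rate, and whether they exceed chance was not tested.

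Only flagged values are listed here, and a library may be the highest or lowest for other genes too. LDLIM library 3 was flagged as the highest of 4 for 8 genes: Avpr2 at 50.4 RPKM, Akr7a3 at 32.8 RPKM, Ccl7 at 18.2 RPKM, Anxa1 at 18.0 RPKM, Muc20 at 9.14 RPKM, Mecom at 7.21 RPKM, Cdh5 at 5.70 RPKM and Scnn1g at 1.73 RPKM. Aqp2 was at 2.56 RPKM in the same library, the lowest of LDLIM. Of the other LDLIM libraries, library 1 was highest for Ednrb (1.72 RPKM), library 2 for Tspan1 (3.04 RPKM), and library 4 was highest for Scnn1a (5.49 RPKM) and lowest for Akr1b1 (60.8 RPKM), Nfat5 (45.1 RPKM) and Gpx2 (0.140 RPKM).

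Among the tAL libraries, library 4 was the highest of 7 for Anxa8 (50.6 RPKM) and Cldn8 (10.5 RPKM), library 5 for Mecom (25.7 RPKM) and Tspan1 (4.37 RPKM), library 2 for Gpha2 (28.3 RPKM) and Scnn1b (1.24 RPKM), and library 1 for Foxq1 (18.3 RPKM). Library 6 was highest for Krt19 (197 RPKM) and Rhbg (24.5 RPKM) and lowest for Ldha (0.157 RPKM) and Nfat5 (0.0697 RPKM). Library 7 was highest for Scnn1a (93.5 RPKM) and lowest for Esam (38.7 RPKM) and Akr1b1 (4.67 RPKM), and library 3 was lowest for Fstl1 (3.33 RPKM).

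Among the IMCD libraries, library 7 was the lowest of 8 for Wnt9b (0.668 RPKM) and for Elf5, which was listed at 0. Library 2 was lowest for Ccl2 (0.343 RPKM), Ccl7 (0.110 RPKM) and Slc5a3 (0.176 RPKM), and library 4 for Anxa1 (0.272 RPKM). Library 8 was highest for Slc7a7 (5.97 RPKM) and Foxc1 (3.94 RPKM), library 1 for Dio1 (1.47 RPKM), and library 6 for Fhl2 (9.45 RPKM) and Tek (6.14 RPKM).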

How the results depend on the processing

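Against the mean of the thin limbs 237 genes were called, 176 of them higher in IMCD; against each limb 38 were higher and 7 lower. Without the filter these numbers were 137, 99, 38 and 4; with quantile normalization 336, 195, 63 and 21; with all tubule libraries of the series in the fit 549, 377, 148 and 21; with array quality weights 1048, 862, 192 and 22; with detected genes as a covariate 305, 182, 49 and 6. Without libraries under 2500 genes they were 234, 165, 38 and 4. Without tAL libraries 1 and 2, chosen after seeing the data like the next 2 settings, they were 279, 189, 47 and 13; without 4, 6 and 7 they were 181, 128, 31 and 4; without 1, 2 and 7 they were 277, 172, 51 and 10. A pseudocount of 0.1, the second table and 1 mean for the thin limbs kept each count within 1.5-fold. Single libraries left out gave 167 to 265 genes called and 120 to 216 higher against the mean, and 22 to 48 and 3 to 8 against each limb. With the replicate number as a block the counts were 205, 140, 25 and 5. Same-numbered libraries did not deviate together (r = -0.105 to 0.101 over 15 pairs), and 3 libraries correlated best with one of their own number. Such correlations cannot show whether same-numbered libraries share an animal, so pairing by number is unknown. Of the 69 calls followed, which include Bst1 beside those named, 44 held in all 32 alternatives and 0 reversed. Without the filter, which tests 12520 genes, 19 were lost. Of the named genes that were not called, 5 were called under some alternative (Nfat5, Cryab, Bsnd, Epcam and Ednrb). The causes of these shifts were not tested. Libraries detected 2142 to 8434 genes at 1 RPKM or more, and the read depth behind low values is unknown.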

Other observations

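The genes of both paragraphs here were chosen after their values were seen. Some enzymes that handle glutathione, aldehydes and other reactive carbonyls were among the genes called higher in IMCD, and the class as a whole was not counted. Others of the class were not called, such as Aldh2, Aldh4a1 and Aldh3a2 (log2 changes -0.61, -0.34 and 0.24). Gpx2, a glutathione peroxidase, had 338 to 1996 RPKM (median 637) in IMCD. It stood at 189, 460.2, 351 and 0.140 RPKM in LDLIM and at 0 to 1.67 RPKM (median 0.113) in tAL, so the difference lay against tAL, and LDLIM libraries 2 and 3 were within the IMCD range (log2 change 6.06 ± 0.95, adjusted p = 7.7e-06 by limma). Gstm1, a glutathione transferase, had 3.76 to 198 RPKM (median 23.4) in IMCD, against at most 0.138 RPKM in LDLIM and 3.10 RPKM in tAL, without overlap (log2 change 4.43). Aldh1a3, which makes retinoic acid from retinal, had 125 to 473 RPKM (median 239) in IMCD. It was at 306 and 312 RPKM in tAL libraries 1 and 2, which held the endothelial markers, and at most 1.13 RPKM in the other thin limb libraries. Its log2 change was 6.33, and 7.45 without these 2 libraries. Akr1b8, an aldo-keto reductase, had 4.81 to 1530 RPKM (median 598) in IMCD and was at 174 RPKM in tAL library 1 and at most 12.9 RPKM in the other thin limb libraries (log2 change 6.45). Ptgr1, a reductase of prostaglandins and leukotrienes, was called higher too (log2 change 6.26), with a single high thin limb library, LDLIM 4 (192.4 RPKM).

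Among the genes lower in IMCD were some best known from the proximal tubule. Dio1, the deiodinase that activates thyroid hormone, had 0 to 1.47 RPKM (median 0.101) in IMCD. It stood at 263, 45.8, 140.3 and 23.4 RPKM in LDLIM and at 0 to 90.8 RPKM (median 20.3) in tAL (log2 change -4.62, adjusted p = 0.0015 by limma). Slc7a7, a basolateral transporter of cationic amino acids, and Hao2, a peroxisomal hydroxyacid oxidase, were lower with log2 changes of -4.56 and -3.97. Both were above every IMCD library in all 4 LDLIM libraries. The 12 proximal tubule markers summed to 0.219 to 25.3 RPKM in IMCD, 17.2 to 62.1 RPKM in LDLIM and 0.0344 to 63.7 RPKM in tAL, and the part of proximal RNA in these 3 genes was not tested.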
